A study of Mus musculus with 2 samples.

Results

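Some of the cells in these subcutaneous mouse tumours carried the messenger RNA of the keratin Krt20 together with large amounts of the small matrix proteins decorin, asporin, osteoglycin and lumican. Those cells are described here. They were found in both single-cell RNA libraries, prepared with the immune profiling chemistry of 10x Genomics, which counts the unique molecular identifiers (UMIs, 1 per captured RNA molecule) of each gene in each cell. A cell entered the gate with at least 300 detected genes, at most 20% mitochondrial UMIs, at least 1 UMI of Krt20 and none of Ptprc, the pan-leukocyte gene CD45. The share of Dcn, Lum, Aspn, Ogn, Prelp and Apod in the UMIs of a cell was then its score, and the 10% of gate cells with the highest score, both libraries pooled, are called matrix-high cells. The gate held 8734 of the 16465 deposited cell barcodes and 874 of them were matrix-high. Of these, 656 came from the serine/glycine-free library and 218 from the control library. The threshold lay at 0.1701% of a cell's UMIs, where the lowest matrix-high cell had 0.17012% and the highest cell left out had 0.16963%. Scores ran on without a gap, with 60 matrix-high cells within 10% above the threshold and 76 other gate cells within 10% below it.

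The tumours came from mice on a diet free of serine and glycine or on a control diet. Each diet had 1 library, with 7999 and 8466 barcodes and with 157234945 and 161332426 UMIs, in the serine/glycine-free library and the control one. The libraries shared 104 barcode sequences, 1 of them among matrix-high cells. The tumour cell line, the mouse strain, age and sex, the length of the diet and the number of mice per library are not given in the sources used here. With 1 library per diet no difference has a replicate check, no test was made, and every interval below is an exact 95% interval that covers counting error only.

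Decorin, lumican, asporin, osteoglycin and Prelp belong to the small leucine-rich proteoglycans, secreted proteins that bind collagen fibrils and control their thickness and spacing. Decorin and asporin also bind growth factors of the TGF-beta family, and Prelp links basement membranes to the connective tissue beneath. Apod, apolipoprotein D, is a secreted lipocalin that carries small lipids. In most tissues these genes are made by fibroblasts, while Krt20 is a keratin of the intestinal and urothelial lining.

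The gate takes Krt20 as its mark of tumour cells. Of 12 epithelial markers, Epcam, Cldn3 and Cldn4 had no UMI in any matrix-high cell, and Krt8 and Cdh1 were at 0 and 0 CPM (UMIs per 1000000 UMIs of the summed cells) in the serine/glycine-free and 1.45 and 0.242 CPM in the control library. The summed epithelial level was 187 and 137 CPM in matrix-high cells, against 277 and 185 CPM in the other gate cells, and Krt20 made most of it, at 174 and 115 CPM in matrix-high cells. Among 12 intestinal lineage genes, Cdx1, Cdx2, Vil1, Tff3, Fabp2 and Hnf4a had no UMI in matrix-high cells. In the other gate cells Epcam stood at 0 and 0.00957 CPM. Vim, the intermediate filament of mesenchymal cells, was at 9347 and 9725 CPM in matrix-high cells and at 10270 and 9396 CPM in the others. Krt18, a keratin of simple epithelia on the same list, had 136 and 83 UMIs in matrix-high cells (12.8 and 20.1 CPM), against 20.3 and 24.2 CPM in the other gate cells. With most of the list at or near 0, the markers do not settle an epithelial identity, and the matrix-high cells are called by their rule.

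Markers of other cell types were low. The 10 macrophage markers summed to 69.0 and 18.6 CPM in matrix-high cells of the serine/glycine-free library and the control one, against 21380 and 24300 CPM in Ptprc-positive Krt20-negative cells. The 10 pericyte and smooth muscle markers summed to 6.42 and 9.68 CPM, and the endothelial ones to 3.96 and 5.81 CPM, with Cdh5, Kdr, Rgs5 and Myh11 at 0. Markers of T and NK cells summed to 0.755 and 0.726 CPM, and no matrix-high cell had a T cell receptor contig (0 of 656 cells and 0 of 218 cells, which at a limit of 3 counts allows shares of up to 0.457% and 1.38%, with exact upper bounds of 0.561% and 1.68%). Fibroblast markers were the exception. Of 15 such genes 14 had UMIs in matrix-high cells, and their sum was 2388 and 2822 CPM, against 1171 and 1174 CPM in the other gate cells. Tcf21 had no UMI in matrix-high cells of either library. Values without the few cells with at least 3 UMIs of Thy1, Pi16, Fap and Postn are given below for some of the genes. With those cells set aside, matrix-high cells kept 4295 of 5400 and 1824 of 2897 Col3a1 UMIs. Of Col1a1 they kept 1074 of 2037 and 487 of 1097 UMIs, and of Mfap5 27 of 279 and 6 of 208.

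Among the 6 genes of the score, decorin supplied most of the UMIs. Dcn made up 75.2% of the score's UMIs in matrix-high cells of the serine/glycine-free library and 74.4% in those of the control library, and it had more UMIs than each of the other 5 genes in 88.1% and 90.8% of these cells. The median matrix-high cell held 43 and 40 Dcn UMIs, and the highest cell 315 and 293. Apod supplied 9.34% and 7.16%, Aspn 6.37% and 6.26%, Ogn 5.34% and 6.15%, Lum 2.33% and 4.66%, and Prelp 1.45% and 1.39%. As the choice by the summed score would have it, most of these cells held several of the genes. After each cell was thinned to 5000 UMIs, at least 3 of the 6 genes were seen in 62.5% of 646 matrix-high cells and 60.8% of 217, against 3.24% of 3893 and 1.64% of 3847 other gate cells. Thinning left out 10 and 1 matrix-high cells.

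The levels that the rule selected were as follows, with the total taken without the 6 genes. Dcn stood at 3344 CPM in matrix-high and 209 CPM in other gate cells of the serine/glycine-free library, and at 2612 CPM against 167 CPM in the control library. Aspn stood at 283 CPM in matrix-high against 6.4 CPM in other gate cells in the serine/glycine-free library and at 219.6 CPM against 3.72 CPM in the control library. Lum, with 104 CPM in matrix-high against 1.35 CPM in other gate cells on the serine/glycine-free diet and 164 CPM against 1.98 CPM on the control diet, was the gene of the 6 with a higher level in the control library. Its UMIs came from a minority of the cells. After thinning, Lum was seen in 16.7% of matrix-high cells of the serine/glycine-free and 21.7% of those of the control library (22.6% and 28.4% before thinning). The other gate cells had 0.617% and 0.988% after thinning (1.59% and 2.203% before), and Ptprc-positive Krt20-negative cells, which should lack the gene, 0.690% and 1.47%. Median depths were 13580 and 16530 UMIs in matrix-high cells, 24890 and 25500 in other gate cells, and 8387 and 6870 in the Ptprc-positive cells, of which 305 and 404 were too shallow to thin. The contrast in these 6 genes is the rule itself. Choosing the cells on a random part of their UMIs and measuring the remaining UMIs gave a Dcn ratio of 15.4 (15.0 to 15.8) and 15.2 (14.7 to 15.7), against 16.0 and 15.7 with all UMIs.

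**Figure D1:**
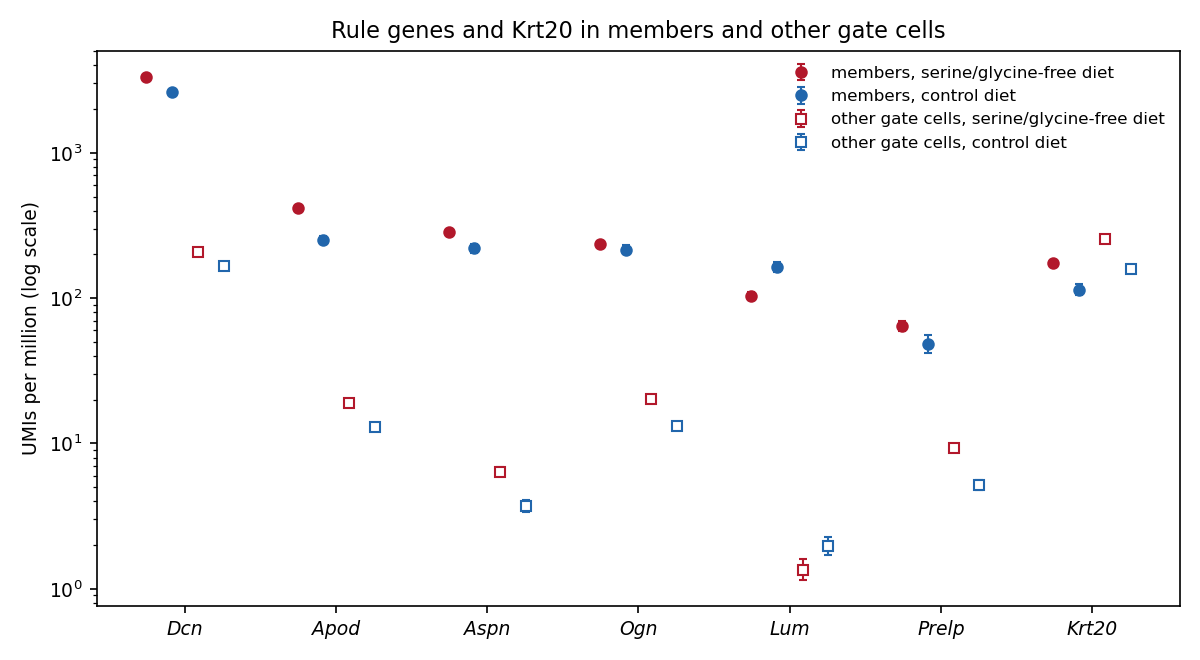
Level of the 6 genes of the score and of Krt20 (CPM, log scale) in matrix-high cells (members, filled) and other gate cells (open), with exact Poisson 95% intervals, mostly smaller than the points. Dcn stands at 3344 CPM in matrix-high cells of the serine/glycine-free and 2612 CPM in those of the control library, and Krt20 is lower in them than in other gate cells of the same library.

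Several of these genes are neighbours in the genome. On mouse chromosome 13 (mm10) Aspn (chr13:49544443-49567565), Omd (chr13:49582462-49592612) and Ogn (chr13:49608015-49624501) follow each other within 80.1 kb, and Dcn (chr10:97479500-97518163) and Lum (chr10:97565501-97572703) lie within 93.2 kb on chromosome 10. Omd, osteomodulin, binds collagen in mineralised tissue and was not part of the score. It stood at 100.3 CPM in matrix-high and 16.4 CPM in other gate cells of the serine/glycine-free library, and at 88.3 CPM against 9.15 CPM in the control library. These are ratios of 6.11 (5.65 to 6.6) in the serine/glycine-free and 9.65 (8.53 to 10.9) in the control library. The next proteoglycan gene on the other side of Aspn, Ecm2, had 0.944 and 2.66 CPM in matrix-high cells and 0.677 and 0.641 CPM in the others. Beyond Lum, Kera and Epyc had 18 and 2 UMIs in all matrix-high cells. Outside the family, Iars, a tRNA synthetase gene 57.6 kb beyond Ogn, was lower in matrix-high cells, with 21.2 CPM in matrix-high against 43.9 CPM in other gate cells on the serine/glycine-free and 26.4 CPM against 53.9 CPM on the control diet. The gene Cenpp spans Aspn, Omd and Ogn, and how reads in the overlap were assigned is not given in the sources used here.

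The 250 bases before the RefSeq start of 3 chromosome 13 neighbours and of Mmp3, the highest counted gene outside the score on the log2 scale of CPM plus 5, are shown because these genes were high in the same cells. Sequences are from RefSeq (GRCm38.p6), 5′ to 3′ on the gene's strand, with matches to 3 motifs in capitals on either strand. The motifs are TGANTCA for AP-1, TATAAA for a TATA box and TTGNNNNAA for C/EBP factors, and they occur in 6.75%, 12.4% and 31.5% of 32851 such windows.
Mmp3, chr9:7445572-7445821, plus strand: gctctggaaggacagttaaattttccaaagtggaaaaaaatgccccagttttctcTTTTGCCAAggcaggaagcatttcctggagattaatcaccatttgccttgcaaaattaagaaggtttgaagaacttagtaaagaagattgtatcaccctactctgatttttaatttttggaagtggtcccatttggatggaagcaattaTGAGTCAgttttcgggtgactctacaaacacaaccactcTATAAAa
Aspn, chr13:49544193-49544442, plus strand: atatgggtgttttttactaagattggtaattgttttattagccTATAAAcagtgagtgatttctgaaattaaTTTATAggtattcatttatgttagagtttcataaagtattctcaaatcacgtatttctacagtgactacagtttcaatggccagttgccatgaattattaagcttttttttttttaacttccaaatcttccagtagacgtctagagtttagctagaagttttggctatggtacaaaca
Omd, chr13:49582212-49582461, plus strand: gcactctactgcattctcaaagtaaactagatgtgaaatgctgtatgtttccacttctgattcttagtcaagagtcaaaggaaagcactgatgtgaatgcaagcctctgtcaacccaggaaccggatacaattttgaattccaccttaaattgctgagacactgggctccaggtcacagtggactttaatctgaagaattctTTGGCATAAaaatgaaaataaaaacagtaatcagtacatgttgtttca
Ogn, chr13:49607765-49608014, plus strand: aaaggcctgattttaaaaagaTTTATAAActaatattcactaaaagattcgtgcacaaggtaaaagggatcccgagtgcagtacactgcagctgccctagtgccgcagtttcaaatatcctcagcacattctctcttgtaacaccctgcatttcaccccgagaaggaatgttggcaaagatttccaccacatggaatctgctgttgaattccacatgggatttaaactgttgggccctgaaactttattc
The Mmp3 window held 1 match to each motif, with AP-1 starting 46 and TATAAA 7 bases before the start. The Aspn and Ogn windows held 2 TATAAA matches each, overlapping in Ogn, and the Omd window 1 C/EBP match. These matches are descriptions of the letters and not of binding.

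Matrix-high cells made up 14.2% (13.2 to 15.3) of gate cells in the serine/glycine-free library, 656 of 4613, and 5.29% (4.63 to 6.02) in the control library, 218 of 4121. The ratio was 2.69 (2.30 to 3.15). Scores within the chosen cells were higher on the serine/glycine-free diet, with a median of 0.376% against 0.293% of UMIs. The same score chose these cells, so the medians describe the distribution behind the shares and are not a separate result. Krt20, which sets the gate, moved with the diet. The gate took 68.6% of Ptprc-negative cells of the serine/glycine-free library and 58.1% of those of the control library, and Krt20 was seen in 13.5% and 7.28% of Ptprc-positive cells.

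The size of the difference depended on which cells were counted. Among all Ptprc-negative cells the same threshold gave 20.6% (19.6 to 21.6) and 13.5% (12.7 to 14.3), a ratio of 1.53 (1.41 to 1.66). Among Krt20-negative Ptprc-negative cells it gave 34.5% and 24.8%, a ratio of 1.39 (1.25 to 1.54). Within the gate the share fell with the number of Krt20 UMIs in both libraries. Cells with 1 Krt20 UMI were matrix-high in 31.3% and 11% of cases, cells with 3 to 5 in 13.9% and 3.19%, and cells with at least 11 in 1.94% and 1.02%. The share also differed with depth. In cells under 5000 UMIs it was 13.5%, 10 of 74 cells, and 1.75%, 1 of 57 cells, and in cells of 5000 to 10000 UMIs it was 33.0% and 14.3%. In cells of 10000 to 20000 UMIs the shares were 26.3% and 11.8%, in cells of 20000 to 40000 UMIs 6.28% and 2.48%, and in cells of at least 40000 UMIs 2.34% and 2.31%, where the ratio was 1.01 (0.419 to 2.499).

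**Figure D2:**
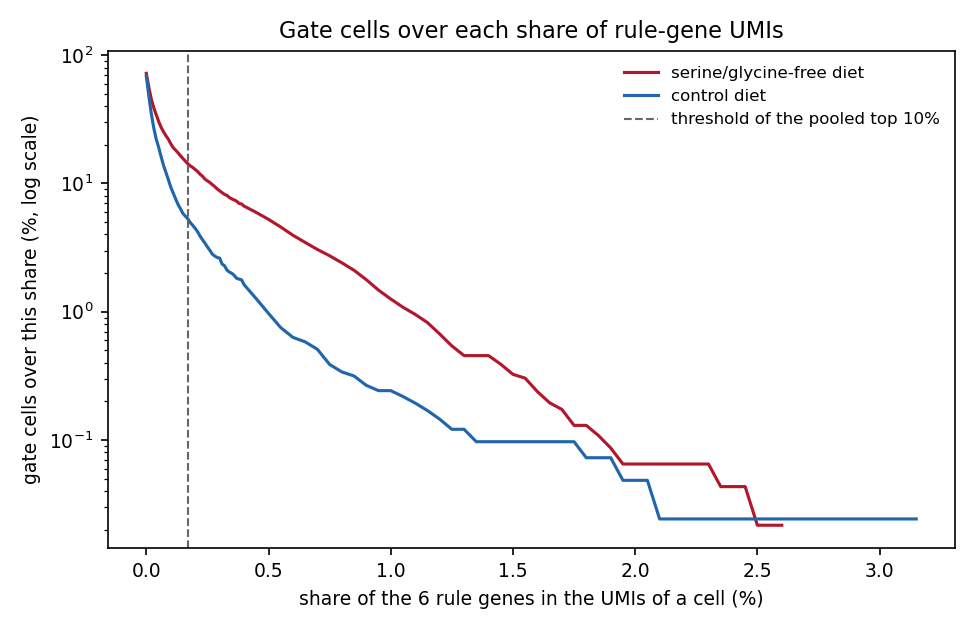
Share of gate cells (%, log scale) whose score exceeds the value on the x axis (share of the 6 genes in a cell's UMIs, %) in the serine/glycine-free (red) and control (blue) library; the dashed line is the threshold at 0.1701%. The red curve lies above the blue one at the threshold, with 14.2% and 5.29% of cells over it, and the last steps on the right are single cells.

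The rest of the transcriptome of matrix-high cells was set against the other gate cells of the same library. Counted genes averaged at least 20 CPM over the 4 summed profiles, matrix-high and other gate cells of each library, and had at least 30 UMIs in 1 of them, and log2 ratios were taken of CPM plus 5, so that they understate the change of low genes. Of 5616 such genes, 150 (2.67%) were at least 2-fold higher, on that scale, in matrix-high cells of both libraries and 49 (0.873%) at least 2-fold lower. The serine/glycine-free library alone had 192 higher (3.42%) and 158 lower (2.81%), and the control library 189 higher (3.37%) and 53 lower (0.944%). With TMM scaling, which lowered the median ratio of all genes by 0.17 and 0.26 on the log2 scale, 89 were higher and 180 lower. Of the 150 higher genes 52 were under 20 CPM in the other gate cells of both libraries, so that they were counted through the matrix-high cells, where they had to be higher. Since the cells were also chosen by 6 genes of the same profiles, all these counts are descriptions.

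Mmp3, stromelysin 1, which degrades proteoglycans and other matrix proteins, stood at 656 CPM in matrix-high and 19.1 CPM in other gate cells of the serine/glycine-free library. In the control library it stood at 570.3 CPM against 14.8 CPM. The ratios were 34.3 (32.7 to 36.1) in the serine/glycine-free and 38.6 (36.2 to 41.2) in the control library. On the log2 scale of CPM plus 5 it was the highest counted gene by the library nearer 0, at 4.78, while the plain CPM ratio of the sparser Cxcl5 was larger in both libraries. Mmp3 was seen after thinning in 59.4% and 61.3% of matrix-high cells (72.7% and 71.1% before), in 5.29% and 4.55% of other gate cells (11.6% and 10.97% before), and in 2.21% and 1.77% of Ptprc-positive Krt20-negative cells. Of 20 proteases and inhibitors listed, 9 were counted and 6 of them were at least 2-fold higher in both libraries, 3 of which also met the counting level of 20 CPM in the other gate cells of at least 1 library. Mmp14, the membrane-bound activator of other metalloproteases, had ratios of 2.68 in the serine/glycine-free and 2.67 in the control library. The further members were Mmp19, Adamts1, the plasminogen activator Plat and the anti-angiogenic serpin Serpinf1, and of these Mmp19 had ratios of 6.51 in the serine/glycine-free and 6.17 in the control library. Mmp13, a collagenase, was below the level for counting and stood at 36.1 CPM in matrix-high against 1.39 CPM in other gate cells on the serine/glycine-free and 27.8 CPM against 1.98 CPM on the control diet. Timp1, an inhibitor of these enzymes, went the other way, with 469.5 CPM in matrix-high against 703 CPM in other gate cells on the serine/glycine-free and 889.6 CPM against 1104 CPM on the control diet.

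Small leucine-rich proteoglycans outside the score were few. Of 11 listed, Bgn and Omd were counted and both were at least 2-fold higher, both counted through matrix-high cells alone. Bgn, biglycan, the closest relative of decorin, stood at 116 CPM in matrix-high against 13.3 CPM in other gate cells in the serine/glycine-free library and at 214 CPM against 13.7 CPM in the control library. Fmod, fibromodulin, and Kera, keratocan, had at most 1.7 CPM in matrix-high cells. Of 14 large proteoglycans and hyaluronan genes 5 were counted, and none was at least 2-fold higher in either library. Their median log2 ratios were -0.34 on the serine/glycine-free and 0.01 on the control diet. The 14 summed to 474 and 517 CPM in matrix-high cells, against 462 and 491 CPM in other gate cells.

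Collagens were higher as a group, with a median log2 ratio of 1.14 on the serine/glycine-free and 1.35 on the control diet over 12 counted of 19, against 0.04 and 0.02 for all genes, and 7 of the 12 were at least 2-fold higher in both libraries. Of those 7, 5 also met the counting level in the other gate cells of at least 1 library. Col3a1, a fibrillar collagen of soft tissue, stood at 509.7 CPM in matrix-high against 74.3 CPM in other gate cells on the serine/glycine-free diet and at 701 CPM against 99.2 CPM on the control diet. The beaded-filament collagens Col6a1, Col6a2 and Col6a3 were 3.79, 6.73 and 5.71 times as high in matrix-high cells of the serine/glycine-free library and 4.52, 7.5 and 4.15 times in the control library. Col1a1, the main chain of type I collagen, had ratios of 2.54 (2.42 to 2.67) in the serine/glycine-free and 3.52 (3.3 to 3.75) in the control library. Col8a1 was the 1 counted collagen with lower levels, at 115 CPM in matrix-high against 176 CPM in other gate cells on the serine/glycine-free and 161 CPM against 186 CPM on the control diet. Genes that process collagen differed less, with 1 of 11 counted, Bmp1, at least 2-fold higher in both. Bmp1, which cleaves procollagen, had ratios of 2.98 in the serine/glycine-free and 3.33 in the control library. The chaperones and translocon genes of the secretory pathway had median log2 ratios of 0.06 on the serine/glycine-free and -0.02 on the control diet over 15 counted genes, and none was 2-fold higher or lower in either library.

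Among 14 counted matrix glycoproteins, 6 were at least 2-fold higher in both libraries, 4 of them counted through matrix-high cells alone. Fn1, fibronectin, stood at 1148 CPM in matrix-high against 297 CPM in other gate cells in the serine/glycine-free and 1190 CPM against 349 CPM in the control library. The thrombospondin Thbs2 had ratios of 3.12 in the serine/glycine-free and 3.32 in the control library. The basement membrane linker Nid1 and the matrilin Matn2 passed the same threshold in both. Spp1, osteopontin, was abundant in both populations, at 9564 CPM in matrix-high against 4636 CPM in other gate cells on the serine/glycine-free and 11340 CPM against 6449 CPM on the control diet. Mgp, matrix Gla protein, an inhibitor of calcification, stood at 271 CPM in matrix-high against 39.1 CPM in other gate cells in the serine/glycine-free and 403 CPM against 50.7 CPM in the control library. Spon2 and Islr, 2 further secreted proteins among the highest 12 genes, had ratios of 11.9 and 13 on the serine/glycine-free diet and 11.7 and 12.2 on the control diet.

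Complement genes formed the group with the highest median ratio in the serine/glycine-free library. All 4 counted of 10 listed were at least 2-fold higher in both libraries, 1 of them, C3, counted through matrix-high cells alone, with median log2 ratios of 2.81 on the serine/glycine-free and 2.82 on the control diet. C1s1 and C1ra encode the proteases of the first complement component. C1s1 stood at 274 CPM in matrix-high against 32.2 CPM in other gate cells on the serine/glycine-free and 206 CPM against 18.1 CPM on the control diet, and C1ra at 419.7 CPM in matrix-high against 60 CPM in other gate cells on the serine/glycine-free and at 320 CPM against 37.8 CPM on the control diet. Their inhibitor Serping1 was higher as well, at 275 CPM in matrix-high against 41.5 CPM in other gate cells on the serine/glycine-free and at 262 CPM against 35.6 CPM on the control diet. C3, the central component, stood at 69.5 CPM in matrix-high against 4.76 CPM in other gate cells on the serine/glycine-free and at 35.8 CPM against 2.6 CPM on the control diet.

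Of 10 listed lipid carriers and metallothioneins 5 were counted, and Clu and Lcn2 were at least 2-fold higher in both libraries. The list's median log2 ratios were 0.50 on the serine/glycine-free and 0.30 on the control diet, and 0.17 and -0.41 among cells of 10000 to 20000 UMIs. Cp and Rarres2, on no such list, were among the highest 12 genes. Cp, ceruloplasmin, a copper-carrying ferroxidase, had ratios of 9.48 (8.95 to 10.1) in the serine/glycine-free and 11.4 (10.2 to 12.7) in the control library. Clu, clusterin, a secreted chaperone, stood at 354 CPM in matrix-high against 55.9 CPM in other gate cells on the serine/glycine-free and 346 CPM against 60.4 CPM on the control diet. Rarres2, chemerin, an attractant of macrophages and dendritic cells, had ratios of 10.1 (9.6 to 10.5) in the serine/glycine-free and 16.9 (15.8 to 18.1) in the control library. Its matrix-high levels were 351 and 336 CPM, and 274 and 151 CPM without the few cells with fibroblast genes described below. In the other gate cells it stood at 34.9 and 19.9 CPM. Lcn2, lipocalin 2, an iron-siderophore binder, stood at 135 CPM in matrix-high against 11.6 CPM in other gate cells on the serine/glycine-free and 35.1 CPM against 3.86 CPM on the control diet.

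Several chemokines were higher in matrix-high cells of both diets. Of 20 chemokines and cytokines 6 were counted, and 4 were at least 2-fold higher in both libraries. The 4 were Ccl2, Cxcl10, Cxcl5 and Cxcl14. Cxcl5 and Cxcl14 met the counting level only through matrix-high cells, where they were high, and all Cxcl14 UMIs of matrix-high cells came from the 9 and 12 cells with fibroblast genes described below. Ccl2, which attracts monocytes, stood at 372 CPM in matrix-high against 78.4 CPM in other gate cells on the serine/glycine-free and 354 CPM against 79.2 CPM on the control diet. Cxcl10, which attracts activated T cells, stood at 569.8 CPM in matrix-high against 202 CPM in other gate cells on the serine/glycine-free and at 270.2 CPM against 75.2 CPM on the control diet. Cxcl5, a neutrophil attractant, was close to absent in the other gate cells, with 74.8 CPM in matrix-high against 1.82 CPM in other gate cells on the serine/glycine-free and 26.6 CPM against 0.632 CPM on the control diet. In Krt20-negative Ptprc-negative cells over the same threshold Cxcl5 was higher than in matrix-high cells, at 102 and 64.0 CPM. Type I interferon genes had median log2 ratios of 0.77 on the serine/glycine-free and 0.94 on the control diet over 10 counted genes, but 0.16 and 0.26 among cells of 10000 to 20000 UMIs. Genes of MHC class I and of the interferon-gamma response had medians of 0.52 on the serine/glycine-free and 0.71 on the control diet over 14, and 0.24 and 0.40 in those cells. Cd274, which encodes PD-L1, stood at 35.4 CPM in matrix-high against 22.8 CPM in other gate cells on the serine/glycine-free and 27.6 CPM against 11.2 CPM on the control diet. Among cells of 10000 to 20000 UMIs it stood at 46.1 CPM in matrix-high against 40.4 CPM in other gate cells on the serine/glycine-free and at 19.7 CPM against 19.5 CPM on the control diet.

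Among 14 counted mesenchymal regulators and structural genes, Fn1 and Sox4, a transcription factor gene, were at least 2-fold higher in both libraries. Prrx1 and Zeb1, transcription factors of mesenchymal cells, had ratios of 1.83 and 1.93 on the serine/glycine-free and 1.72 and 1.69 on the control diet. In the TGF-beta and BMP pathway 2 of 11 counted genes were at least 2-fold higher in both libraries. Tgfbr3, betaglycan, a co-receptor, stood at 241 CPM in matrix-high against 88.3 CPM in other gate cells on the serine/glycine-free and 182 CPM against 64.8 CPM on the control diet, and the BMP target Id3 at 82.6 CPM in matrix-high against 22.3 CPM in other gate cells on the serine/glycine-free and at 46.7 CPM against 11.3 CPM on the control diet.

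**Figure D3:**
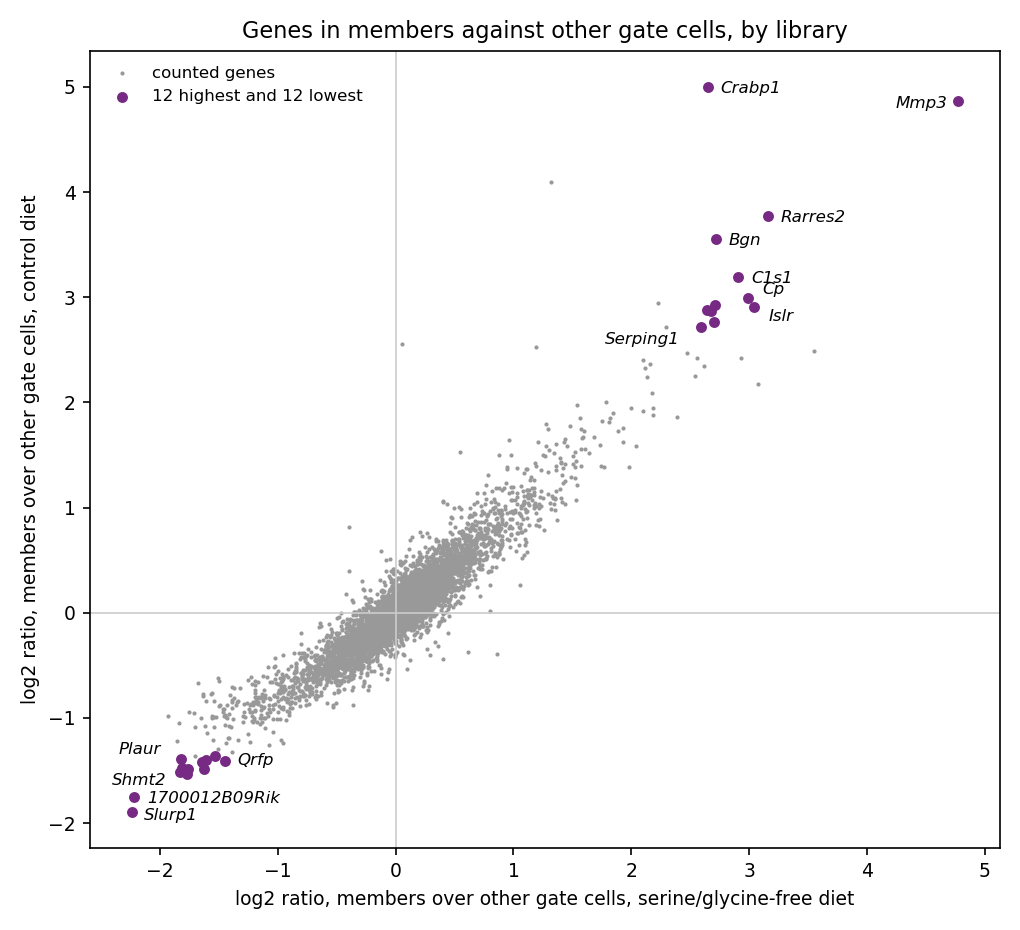
Log2 ratio of CPM plus 5 of matrix-high (member) over other gate cells for 5616 counted genes, in the serine/glycine-free library (x axis) and the control library (y axis), with the 12 highest and 12 lowest genes in purple. Mmp3 lies at 4.78 and 4.86, and Slurp1 at -2.24 and -1.89.

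Cell division genes were lower in matrix-high cells. All 17 counted of 18 proliferation genes had lower levels in both libraries, with median log2 ratios of -1.56 on the serine/glycine-free and -0.98 on the control diet, and 3 were at least 2-fold lower in both. Mki67, the gene of the Ki-67 antigen, stood at 24.1 CPM in matrix-high and 92.9 CPM in other gate cells of the serine/glycine-free library and at 52.5 CPM against 105 CPM in the control library. Ccnb1, the mitotic cyclin, stood at 13.7 CPM in matrix-high against 62 CPM in other gate cells on the serine/glycine-free and at 38.2 CPM against 84 CPM on the control diet. Depth moved with this result, since the median matrix-high cell had 13580 and 16530 UMIs and the median other gate cell 24890 and 25500. Among cells of 10000 to 20000 UMIs the medians were -1.80 and -0.84. In those cells Mki67 stood at 7.995 and 72.8 CPM on the serine/glycine-free and at 21.9 and 60.6 CPM on the control diet.

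Enzymes that make serine and glycine, and those that feed 1-carbon units to nucleotide synthesis, were lower too. All 10 counted of 14 had lower levels in both libraries, and 5 of them were at least 2-fold lower in both. Phgdh, the first enzyme of serine synthesis, stood at 134 CPM in matrix-high against 446 CPM in other gate cells on the serine/glycine-free and 213 CPM against 555 CPM on the control diet. Psat1 and Psph, the next steps, had ratios of 0.265 and 0.389 in the serine/glycine-free and of 0.345 and 0.463 in the control library. Shmt2, which turns serine into glycine in mitochondria, stood at 37.4 CPM in matrix-high against 146 CPM in other gate cells on the serine/glycine-free and at 66.5 CPM against 199.8 CPM on the control diet. Mthfd2, a mitochondrial folate enzyme, had ratios of 0.269 (0.243 to 0.297) in the serine/glycine-free and 0.339 (0.297 to 0.385) in the control library. Asns, asparagine synthetase, a target of the amino acid stress factor Atf4, had ratios of 0.298 (0.272 to 0.325) in the serine/glycine-free and 0.359 (0.319 to 0.402) in the control library, and it was the 1 gene of 7 counted on the Atf4 list that was at least 2-fold lower in both. Among cells of 10000 to 20000 UMIs the median log2 ratio of the serine, glycine and 1-carbon list was -1.32 on the serine/glycine-free and -1.17 on the control diet, against -1.18 and -0.92 over all depths.

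The lowest 12 genes held Shmt2, Mthfd2, Psat1 and Asns, given above, and Slurp1 was the lowest. Slurp1, a secreted protein of the Ly6 family known from skin, stood at 17.3 CPM in matrix-high against 100.2 CPM in other gate cells on the serine/glycine-free and 22 CPM against 95.1 CPM on the control diet. The uncharacterised 1700012B09Rik stood at 35.3 CPM in matrix-high against 182 CPM in other gate cells on the serine/glycine-free and at 61.4 CPM against 219 CPM on the control diet. Nppb, a natriuretic peptide, Btc, a ligand of the EGF receptor, the kallikrein Klk10 and Plaur, the urokinase receptor, were also among the lowest 12. Plaur stood at 57.4 CPM in matrix-high against 215 CPM in other gate cells on the serine/glycine-free and 122 CPM against 326 CPM on the control diet. Krt20 itself was at 174 CPM in matrix-high against 255 CPM in other gate cells on the serine/glycine-free and at 115 CPM against 159.5 CPM on the control diet, with a median of 2 and 1 UMIs in matrix-high against 5 and 3 in other gate cells. Glycolysis and hypoxia genes were close to the other gate cells, with median log2 ratios of -0.26 on the serine/glycine-free and -0.10 on the control diet over 13 counted genes and none 2-fold apart.

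**Figure D4:**
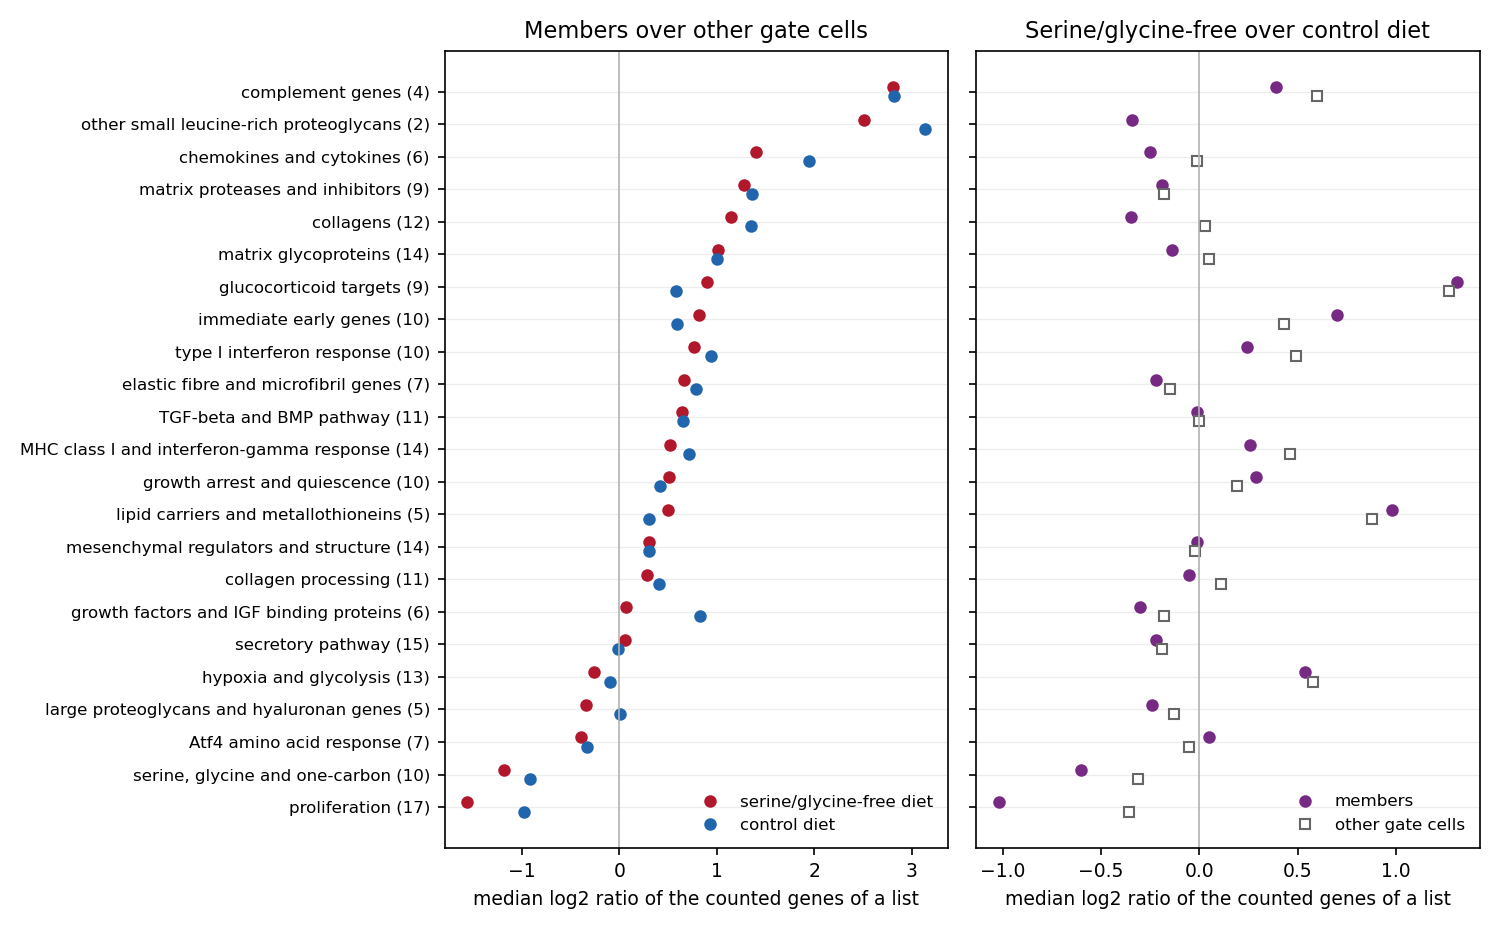
Median log2 ratio of the counted genes of each functional list (number counted for the left panel in brackets; lists with at least 2). Left, matrix-high (member) over other gate cells in each library; right, serine/glycine-free over control diet in matrix-high and other gate cells. Complement genes lie at 2.81 and 2.82 in the left panel, and proliferation genes at -1.02 in matrix-high and -0.36 in other gate cells in the right panel.

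These differences were graded over the score. Gate cells were put into 6 bins by their pooled rank, of which the upper 3 are the matrix-high cells. In the serine/glycine-free library Mmp3 stood at 1.31 CPM in the lower 50% of cells, at 17.8 and 97.1 CPM in the next 2 bins, and at 322.5, 918 and 1645 CPM in the 3 matrix-high bins. In the control library it ran over the same bins from 2.53, 19.2 and 85.5 CPM to 386, 738.5 and 3553 CPM. Phgdh ran the other way, at 526, 389 and 279 CPM and then 172.5, 95.4 and 50.3 CPM on the serine/glycine-free diet, and at 641.5, 459.5 and 338 CPM and then 235, 173 and 83.1 CPM on the control diet. Mki67 and Slurp1 had no UMI in the top bin of either library. That bin held 77 and 11 cells, and the values of the 11 control cells are the least certain. The median depth of the bins ran from 24590 to 10890 UMIs on the serine/glycine-free and from 26100 to 9003 UMIs on the control diet.

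**Figure D5:**
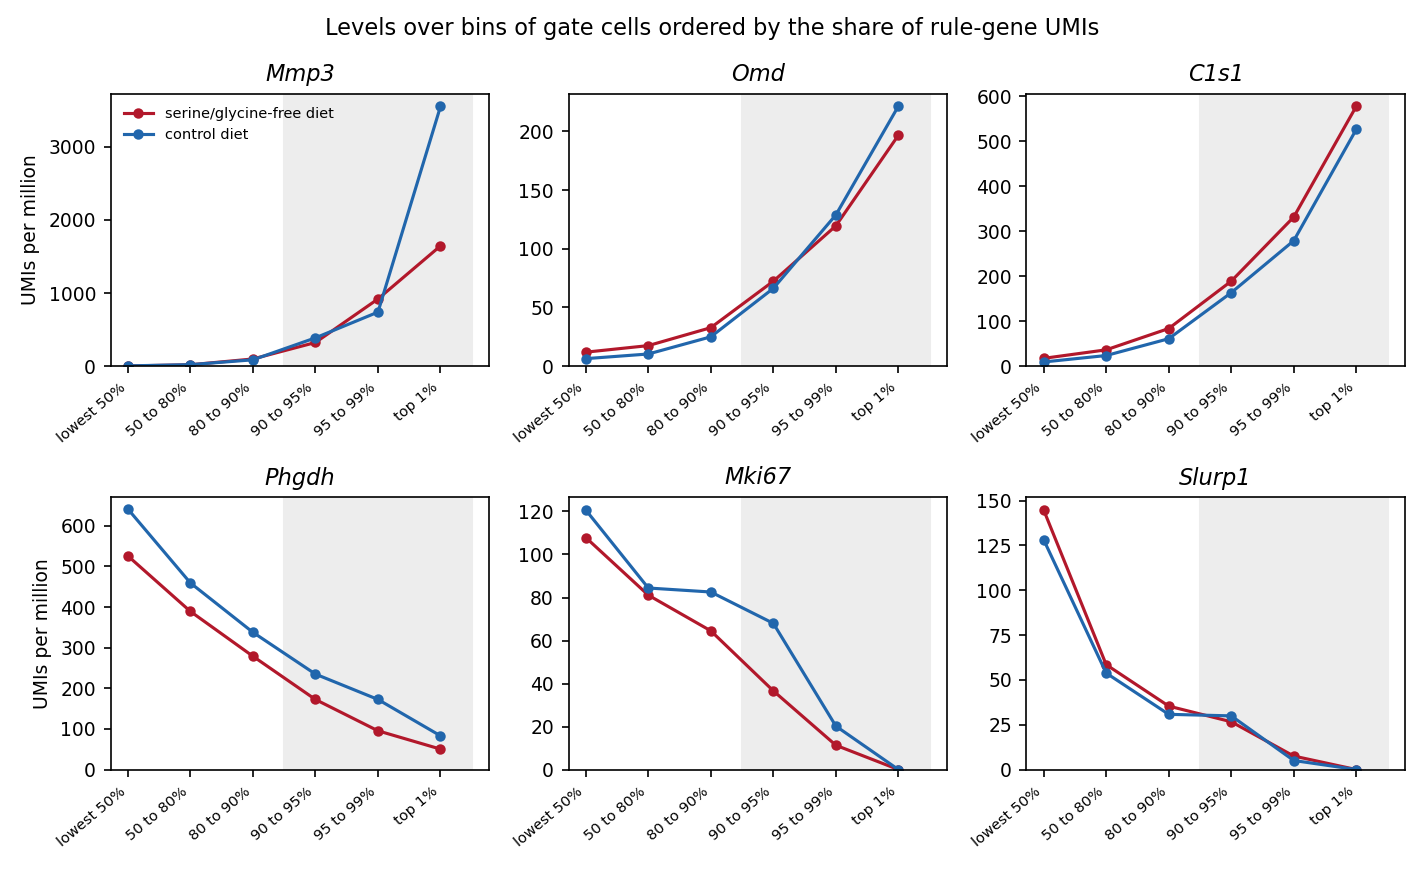
Level (CPM) of 6 genes over 6 bins of gate cells ordered by score, lowest on the left, in the serine/glycine-free (red) and control (blue) library; grey marks the bins of matrix-high cells. Mmp3, Omd and C1s1 rise over the bins to 1645, 197 and 577 CPM in the top serine/glycine-free bin, while Phgdh, Mki67 and Slurp1 fall to 50.3, 0 and 0 CPM. The top control bin holds 11 cells.

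Fibroblasts share most of these matrix genes, so matrix-high cells were set beside Krt20-negative Ptprc-negative cells with at least 3 UMIs of the fibroblast genes Pi16, Fap and Postn (32 cells on the serine/glycine-free and 76 on the control diet). Their fibroblast markers summed to 21500 and 33020 CPM, but they also held markers of other cell types. Pericyte and smooth muscle markers summed to 595 and 870 CPM, skin keratinocyte markers to 362 and 409 CPM, and macrophage markers to 998 and 55.7 CPM. Dcn was at 6728 and 5187 CPM in these cells and Lum at 744 and 829.7 CPM, both above the matrix-high levels. Bgn stood at 4901 and 3619 CPM, Mfap5, a microfibril protein, at 2060 and 2453 CPM, against 26.3 and 50.3 CPM in matrix-high cells, and Col3a1 at 5239 and 11470 CPM. Other genes were higher in matrix-high cells. Aspn was at 48.5 and 71.7 CPM in the fibroblast-gene cells, Omd at 13.1 and 2.53 CPM, Clu at 13.1 and 14.3 CPM, Cp at 48.5 and 16.9 CPM and Mgp at 35.5 and 81.8 CPM. For each of these 5 genes the matrix-high level of the same library was higher. Aspn is part of the score, so a higher Aspn level in matrix-high cells was favoured by the way they were chosen. Krt18, which was not used in choosing either set, had no UMI in the 32 and 76 cells and stood at 12.8 and 20.1 CPM in matrix-high cells. Other epithelial markers went the other way. Epcam stood at 9.33 and 11.8 CPM in the fibroblast-gene cells, seen in 1 and 2 of them, and had no UMI in matrix-high cells. Krt7 stood at 28.0 and 0.843 CPM against 0.472 and 0.242 CPM in matrix-high cells, and Krt19 at 1.87 and 15.2 CPM against 0.0944 and 0 CPM.

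Most matrix-high cells held Pdgfra, Pi16, Dpt or Thy1, 374 of 656 (57.0%) on the serine/glycine-free and 147 of 218 (67.4%) on the control diet. Of the other gate cells 800 of 3957 (20.2%) and 828 of 3903 (21.2%) held them. A few matrix-high cells met a stricter cut, and only those few are called the cells with fibroblast genes here. At least 3 UMIs of Thy1, Pi16, Fap and Postn were found in 9 of 656 matrix-high cells on the serine/glycine-free diet (1.37%) and in 12 of 218 on the control diet (5.505%), against 12 of 3957 and 16 of 3903 other gate cells. Those few cells held all 380 and 848 UMIs of Crabp1, a retinoic acid binding protein, and all 148 and 436 UMIs of Cxcl14 in matrix-high cells. With them left out of the gate and the top 10% taken anew, the log2 ratio of Bgn was 2.37 and 2.35, against 2.72 and 3.56 with them. With the 9 and 12 cells taken out of the matrix-high sums alone, Col1a1 stood at 104 CPM on the serine/glycine-free and 127 CPM on the control diet, against 192 and 265 CPM with them, and Fn1 at 1121 and 1174 CPM, against 1148 and 1190 CPM with them. In the first of these ways the log2 ratio of Mmp3 was 4.81 and 4.81, against 4.78 and 4.86, and that of Cp 3.01 and 3.05, against 2.99 and 2.99. Doublets were not called, since the automatic Scrublet threshold marked 0 and 2 cells of the libraries. Scores over 0.25 were found in 5 and 6 matrix-high cells (0.762% and 2.75%) and in 27 and 54 other gate cells (0.682% and 1.38%).

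Krt20-negative cells over the same threshold were more numerous, 727 on the serine/glycine-free and 737 on the control diet. Mmp3 stood at 681 and 899 CPM in them, Omd at 134 and 104 CPM, Cp at 254 and 180.3 CPM and C1s1 at 378 and 333 CPM, each above the matrix-high level of the same library. Slurp1, at 2.67 and 5.0 CPM, and Phgdh, at 64.9 and 111 CPM, were lower than in matrix-high cells. The part of sequencing depth in these differences was not tested.

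Between the diets, matrix-high cells differed in fewer genes. Of 5699 genes counted, 30 (0.526%) were at least 2-fold higher in matrix-high cells on the serine/glycine-free diet and 25 (0.439%) at least 2-fold lower. With TMM scaling 37 were higher and 13 lower. In the other gate cells the counts were 26 of 5415 (0.480%) higher and 1 (0.0185%) lower. Depth, Krt20 level and the share of cells with fibroblast genes all differed between the matrix-high cells of the diets. Values at matched depth or without the cells with fibroblast genes are given below for some of the genes only.

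Targets of the glucocorticoid receptor were higher on the serine/glycine-free diet. Of 9 counted genes 8 were at least 2-fold higher in matrix-high cells, with a median log2 ratio of 1.31, and 8 were in the other gate cells, with a median of 1.27. Tsc22d3, the glucocorticoid-induced leucine zipper, stood at 540.3 CPM in matrix-high cells on the serine/glycine-free and 95.5 CPM on the control diet, and at 257 and 78.5 CPM in the other gate cells. The ratios were 5.66 (5.11 to 6.28) in matrix-high and 3.28 (3.2 to 3.36) in other gate cells. Fkbp5, a co-chaperone of the receptor, had ratios of 3.74 (3.27 to 4.3) in matrix-high and 2.83 (2.74 to 2.94) in other gate cells, and the kinase Sgk1 3.01 (2.77 to 3.27) in matrix-high and 3.0 (2.93 to 3.06) in other gate cells. Cebpd, a transcription factor of the acute-phase response, stood in matrix-high cells at 1227 CPM on the serine/glycine-free and 414 CPM on the control diet. In the other gate cells it stood at 283 CPM and 74 CPM on the same diets. It was thus high in matrix-high cells of both diets and higher on the serine/glycine-free diet in both populations. The metallothioneins Mt1 and Mt2, which bind zinc and copper, had ratios of 4.19 (4.09 to 4.28) and 4.39 (4.21 to 4.59) in matrix-high cells and 3.64 (3.62 to 3.66) and 4.24 (4.2 to 4.28) in the others. In matrix-high cells Lcn2 stood at 135 CPM on the serine/glycine-free and 35.1 CPM on the control diet, and Cxcl5 at 74.8 CPM against 26.6 CPM. Without the cells with fibroblast genes the ratio of Cxcl5 in matrix-high cells was 2.34 (1.9 to 2.91), against 2.81 with them. That of Lcn2 was 4.03 without and 3.85 with them, and that of Tsc22d3 5.64 without them. Ddit4, an inhibitor of mTORC1, had ratios of 3.35 in matrix-high and 3.27 in other gate cells, and the survival gene Bcl2l1 3.0 in matrix-high and 2.35 in other gate cells.

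Cell division genes were lower in matrix-high cells on the serine/glycine-free diet. All 17 counted had lower levels, with a median log2 ratio of -1.02, and 9 were at least 2-fold lower. In the other gate cells all 18 counted had lower levels as well, with a median of -0.36, and none was 2-fold lower. Ube2c, a ubiquitin carrier of mitotic exit, stood in matrix-high cells at 120.5 CPM on the serine/glycine-free and 278 CPM on the control diet. In the other gate cells it stood at 474 CPM and 553 CPM on the same diets. The ratios were 0.434 (0.401 to 0.47) in matrix-high and 0.856 (0.846 to 0.866) in other gate cells. Kpna2, an importin, had ratios of 0.314 (0.267 to 0.368) in matrix-high and 0.642 (0.625 to 0.66) in other gate cells, and Cenpf, a kinetochore protein, 0.40 (0.347 to 0.461) in matrix-high and 0.768 (0.751 to 0.785) in other gate cells. Among cells of 10000 to 20000 UMIs the medians of the list were -1.19 in matrix-high and -0.22 in other gate cells. At that depth Ube2c, Kpna2 and Cenpf had log2 ratios of -1.92, -1.31 and -2.0 in matrix-high cells. In other gate cells of that depth they had 0.09, -0.47 and -0.18. Over all depths the values were -1.17, -1.505 and -1.22 in matrix-high and -0.222, -0.609 and -0.369 in other gate cells. The score was higher on the serine/glycine-free diet within the matrix-high cells, and it went with lower proliferation genes in both libraries. In the 3 matrix-high bins of the score Mki67 stood at 36.6, 11.3 and 0 CPM on the serine/glycine-free diet. On the control diet it stood at 68.0, 20.2 and 0 CPM in the same bins. The part of the score in the diet difference was not tested. With the top 10% of each library taken on its own, the count of genes at least 2-fold lower on the serine/glycine-free diet was 134, and with at least 3 Krt20 UMIs required it was 6.

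The lowest 2 ratios between diets rested on the few cells with fibroblast genes. Cxcl14 stood at 14 CPM on the serine/glycine-free and 106 CPM on the control diet, and Crabp1 at 35.9 CPM against 205 CPM. Both had no UMI in either library once the 9 and 12 cells named above were set aside. Bgn, with a ratio of 0.54 (0.495 to 0.59) in all matrix-high cells, had 0.965 (0.843 to 1.11) without them, and Rarres2 had 1.81 (1.65 to 1.98) without them, against 1.04 (0.982 to 1.11) with them. Col3a1 had 0.727 (0.695 to 0.761) with and 0.878 (0.831 to 0.928) without them, and Mfap5, with 27 and 6 UMIs left, 1.68 (0.679 to 4.97) without them.

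Matrix genes outside the score differed little between diets in matrix-high cells. Collagens had a median log2 ratio of -0.35 over 14 counted genes, and 1 of them, Col12a1, was at least 2-fold lower, at 13.3 CPM on the serine/glycine-free and 39.4 CPM on the control diet. Without the cells with fibroblast genes Col12a1 kept 15 of 141 and 6 of 163 UMIs, a ratio of 0.932 (0.342 to 2.93). Among glycoproteins, Tnc, tenascin C, was lower, at 17.9 CPM on the serine/glycine-free and 63.4 CPM on the control diet. Without those cells Tnc kept 39 of 190 and 31 of 262 UMIs, a ratio of 0.469 (0.285 to 0.777). Ccn2, connective tissue growth factor, was higher, at 105 CPM against 39.9 CPM, with a ratio of 2.59 (2.19 to 3.08) without them. Mmp3 had a ratio of 1.15 (1.1 to 1.21), Omd 1.14 (1.01 to 1.28) and Fn1 0.965 (0.933 to 0.997). Serine, glycine and 1-carbon enzymes had a median of -0.60 over 8 counted genes in matrix-high cells and of -0.31 over 10 in other gate cells, with none 2-fold apart. Phgdh had ratios of 0.626 (0.575 to 0.682) in matrix-high and 0.804 (0.794 to 0.814) in other gate cells. Hypoxia and glycolysis genes had medians of 0.54 in matrix-high and 0.58 in other gate cells over 13 counted genes. Cd274 had ratios of 1.28 (1.04 to 1.6) in matrix-high and 2.03 (1.89 to 2.18) in other gate cells, with log2 ratios of 0.31 and 0.775. Among cells of 10000 to 20000 UMIs its log2 ratios between diets were 1.05 in matrix-high and 0.89 in other gate cells.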

How the data were processed

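Single-cell RNA and T cell receptor libraries of 1 tumour sample per diet were used. The values are raw UMI counts per gene and cell, deposited as filtered matrices by the authors. Per the file headers Cell Ranger 7.1.0 made them, while the submitters' processing notes name version 2.2.2 and the mm10 build. The labels' extraction text describes human heart tissue, although the organism is mouse and the gene symbols are those of mouse. Doublet handling before deposit is not given in the sources used here.

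Counts were summed over matrix-high cells and over the other gate cells of each library and scaled to CPM without the 6 score genes and without T cell receptor and immunoglobulin genes. Log2 ratios used a pseudocount of 5 CPM. Intervals are exact Poisson intervals for levels, Clopper-Pearson intervals for shares and conditional binomial intervals for ratios, at 95%. With 1 library per diet no p-value was computed. Named genes were the 12 highest and 12 lowest in matrix-high cells by the library nearer 0, the 10 highest and 10 lowest between diets with at least 50 CPM, and up to 4 from each of 24 functional lists, beside 12 cell type lists. Genes named outside this rule were chosen after their values were seen. The matrix-high cells and all lists were chosen with earlier results of these data known. The ratio computation was tested on simulated data. Python 3.11.15, numpy 2.4.6, scipy 1.17.1, pandas 2.3.3, scanpy 1.11.5 (Scrublet), matplotlib 3.10.9 and edgeR 4.0.16 (TMM factors only) in R 4.3.3 were used.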

Additional observations from a re-analysis of the deposited data

How the results depend on the processing

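The ratio of the matrix-high share between diets, 2.69, was 3.81 with the top 5% and 1.82 with the top 20% of gate cells, 2.15 without cells holding Pdgfra, Pi16, Dpt or Thy1, 1.56 without the Krt20 requirement and 2.23 among cells of 10000 to 20000 UMIs. Taking the top 10% of each library gave 0.999, by construction. Counts of genes at least 2-fold higher in matrix-high cells, 150, were 59 with the top 20%, 56 with at least 3 Krt20 UMIs, 59 without Pdgfra, Pi16, Dpt or Thy1, 80 with a pseudocount of 20 CPM, 230 with no filter on low genes, 89 with TMM and 304 without the Krt20 requirement. Counts lower in them, 49, were 185 (top 5%), 4 (top 20%), 10 (each library), 1 (at least 3 Krt20 UMIs), 30 (score thinned to 5000 UMIs), 87 (without doublet scores over 0.25), 4 (without Pdgfra, Pi16, Dpt or Thy1), 101 (score without Dcn), 82 and 22 (pseudocounts of 1 and 20 CPM), 180 (TMM), 226 (no Krt20 requirement) and 92 (10000 to 20000 UMIs). Between diets, the 30 higher genes were 73 (each library), 50 (no filter) and 46 (10000 to 20000 UMIs). The 25 lower genes were 50 (top 5%), 10 (top 20%), 134 (each library), 6 (at least 3 Krt20 UMIs), 15 (thinned score), 16 (doublet scores), 8 (without Pdgfra, Pi16, Dpt or Thy1), 6 (pseudocount of 20 CPM), 49 (no filter), 13 (TMM), 117 (no Krt20 requirement) and 7 (gate judged at 5000 UMIs). The cause of these changes was not tested. Crabp1 in matrix-high over other gate cells had a log2 ratio of -0.01 in the serine/glycine-free library without Pdgfra, Pi16, Dpt or Thy1 and also without cells of at least 3 UMIs of Thy1, Pi16, Fap and Postn, and -0.16 in the control library without Pdgfra, Pi16, Dpt or Thy1. Between diets, Cxcl14 had 0.96 with at least 3 Krt20 UMIs and Crabp1 0.47 with the gate judged at 5000 UMIs. Of 912 values of single named genes against other gate cells 3 changed sign, and of 380 between diets 2 did. The settings without the Krt20 requirement, with the gate judged at 5000 UMIs, without cells of at least 3 fibroblast UMIs, with cells chosen on a random part of their UMIs and with 10000 to 20000 UMIs were chosen after seeing the data. No paired analysis was possible because each diet has 1 library.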

Other observations

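Further groups of genes outside the matrix differed between matrix-high and other gate cells. Immediate early genes, which respond within minutes to growth factors and to tissue handling, had median log2 ratios of 0.82 on the serine/glycine-free and 0.59 on the control diet over 10 counted genes, and 1 of the 10 was at least 2-fold higher in both. That gene was Fos, at 1661 CPM in matrix-high and 622 CPM in other gate cells of the serine/glycine-free library and at 1049 CPM against 419.6 CPM in the control library. Btg2, an antiproliferative gene, was the 1 of 10 counted growth arrest genes at least 2-fold higher in both, at 318 CPM in matrix-high against 121 CPM in other gate cells on the serine/glycine-free and 244 CPM against 89.4 CPM on the control diet.

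Among growth factors and IGF binding proteins 6 genes were counted and Igfbp4, a binder of insulin-like growth factors, was at least 2-fold higher in both libraries on the scale of CPM plus 5, at 449 CPM in matrix-high against 105 CPM in other gate cells on the serine/glycine-free and 473 CPM against 154 CPM on the control diet. Fgf7, keratinocyte growth factor, had CPM ratios of 2.1 in the serine/glycine-free and 2.44 in the control library. Sox9, a transcription factor of cartilage and of intestinal crypts, was the 1 counted gene of 8 tendon and cartilage markers, at 78.5 CPM in matrix-high against 44.4 CPM in other gate cells on the serine/glycine-free and 49.1 CPM against 33 CPM on the control diet, while Comp, Col2a1 and Chad had no UMI in matrix-high cells.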
